A study of Mus musculus with 16 samples.

Results

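Potassium channel genes of the mouse hypothalamus-POA, the hypothalamus with the preoptic area, were followed across cell types, neuronal clusters and treatment groups in Drop-seq libraries. The members were chosen by symbol and total count: every gene whose symbol starts with *Kcn*, except *Kcnj10*, with at least 50 unique molecular identifiers (UMIs, each counted as 1 captured transcript) summed over the kept cells of all 16 libraries. In all, 81 of the 94 listed *Kcn* genes were members, out of 28683 genes listed and 18308 that reached the same total. Total UMIs set the membership, so a member's total is a description and not a finding. Just inside the limit were *Kcnv2* with 55 UMIs, *Kcnj1* with 55, *Kcnk7* with 58, *Kcne2* with 58 and *Kcns1* with 59. Just outside it were *Kcnmb3* with 44, *Kcnrg* with 43, *Kcna10* with 32 and *Kcna3* with 32.

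Each library came from the dissociated tissue of 1 female mouse, aged 8 to 10 weeks at the start of the experiments. All mice were on a mixed CD-1;129P2 background. Wild-type mice were Cre-negative littermates, and *Esr1* cKO mice carried floxed *Esr1*, the estrogen receptor alpha gene, with a Cre transgene driven by *Nkx2-1*, so that the deletion is limited to cells of the *Nkx2-1* lineage. The study collected 4 mice a day over 4 days, with the groups in parallel, but no label ties a library to a day. Both genotypes received daily subcutaneous injections over 4 weeks of either tamoxifen at 0.1 mg/kg, a selective estrogen receptor modulator, or the oil vehicle. The series holds 3 wild-type oil, 5 wild-type tamoxifen, 4 cKO oil and 4 cKO tamoxifen libraries, written WT_oil, WT_tam, cKO_oil and cKO_tam in the plots.

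Potassium channels let potassium leave the cell along its gradient and so set the resting potential, end action potentials and limit repetitive firing. Voltage-gated (Kv) pores open on depolarization, calcium-activated pores (SK, IK and BK) open when calcium rises, two-pore channels carry leak current, and inward rectifiers pass current near rest, some of them under the control of G proteins or of ATP. Auxiliary subunits (the KCNE, Kv beta, BK beta and Kv channel-interacting proteins) change the gating or the trafficking of these pores, and silent Kv subunits act only together with other pores. In the brain, glial cells use some of the same channels to take up the potassium that neurons release, and vascular channels set the tone of vessels.

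The kept cells numbered 55675, with 1717573 to 5457033 UMIs per library and a median of 563 to 819 UMIs per cell. Libraries S10 (wild-type oil) and S11 (cKO tamoxifen) stood apart before any comparison. Of the 23 members with more than 100000 bp of introns, 22 lay below all other libraries in both, with a median log2 ratio to the others of -1.54, against -0.22 for 57 members with less intron sequence. Over all genes the 2 medians were -1.0 and -0.02. *Kcnq1* was at 2.11 and 0.367 UMIs per 1000000 UMIs (CPM) in S10 and S11 and at 109 to 303 CPM elsewhere. Both libraries were left out of every comparison, which leaves 14 libraries and 48346 cells: 2 wild-type oil, 5 wild-type tamoxifen, 4 cKO oil and 3 cKO tamoxifen. Libraries S13 to S16, of 3 groups, shared 303 to 359 cell barcodes per pair, against at most 42 in any other pair. They held 386 shared barcodes in 1418 of their 16407 cells, and 98.4% of those barcodes had the same cell type in each library that held them, against 15.2% for 2 unrelated cells. So some of the counts of these libraries may be from the same cells in different groups, and results are given without them where they differ. With these cells or these libraries left out, 0 members were called between groups, as with them. *Esr1* in neurons, here over all 16 libraries, ranged from 44.1 to 86.5 CPM in wild-type oil, 57.3 to 74.4 in wild-type tamoxifen, 41.5 to 59 in cKO oil and 17.1 to 73.9 in cKO tamoxifen libraries. The wild-type oil range includes S10 and the cKO tamoxifen range includes S11. These ranges overlap, and the reads of 3′ tags may lie outside the floxed exon, so this gene does not check the labels.

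The 9 cell types are clusters of cells, made without any *Kcn* gene and named from marker lists (neuron-like, astrocyte-like and so on), and they are called by the plain names here. Each cluster had 8 to 10 of its own markers detected. Polydendrocytes are the precursors of oligodendrocytes. For each member, the UMIs in all cells of a type were added up per library and set against the summed other cells of the same library, in an edgeR quasi-likelihood fit with the library as a block. A member was called where the Benjamini-Hochberg adjusted p over all genes was under 0.05 and the log2 fold change was at least 1 in size.

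Of the 81 members, 56 had enough counts for a test in at least 1 type and 51 were called higher in at least 1, or 91.1% of those tested, against 65.5% of all 13688 genes tested. A member could pass the filter on low counts through the type where it was high, so these counts describe the tested members only. In all, 30 members were called higher in a single type, 19 in 2 types and 2 in 3 types (53.6%, 33.9% and 3.57% of those tested, against 45.2%, 15.8% and 4.51% of all genes, the last for 3 or more types). The last 2 were *Kcnk3* in neurons, mural cells and fibroblasts, and *Kcnj2* in endothelial cells, microglia and fibroblasts. The fibroblast call of *Kcnk3* turned to a lower level (-1.92) once cells with markers of the pituitary's pars tuberalis formed a cluster of their own. The 5 tested members called higher nowhere were *Kcnq1*, *Kcnq5*, *Kcnk2*, *Kcnh1* and *Kcnmb2*. The remaining 25 members were tested in no type. Neurons had the highest mean level of 25 of the 81 members (30.9%, against 17.7% of the 18308 genes of at least 50 UMIs). Mural cells had that of 12 (14.8%, against 9.23%), polydendrocytes of 11 (13.6%, against 14.4%) and astrocytes of 10 (12.3%, against 8.85%). Ependymal cells had that of 7 (8.64%, against 14.4%) and fibroblasts of 6 (7.41%, against 8.39%). Oligodendrocytes and microglia had that of 5 each (6.17%, against 6.51% and 12.5%), and endothelial cells of none (8.05% of all genes). Members together took 0.413% ± 0.0544 (SD, n = 14) of the UMIs in neurons, 0.372% ± 0.0575 in polydendrocytes, 0.32% ± 0.0478 in astrocytes and 0.105% ± 0.012 in endothelial cells. The other 5 types lay between 0.137% and 0.206%.

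**Figure D1:**
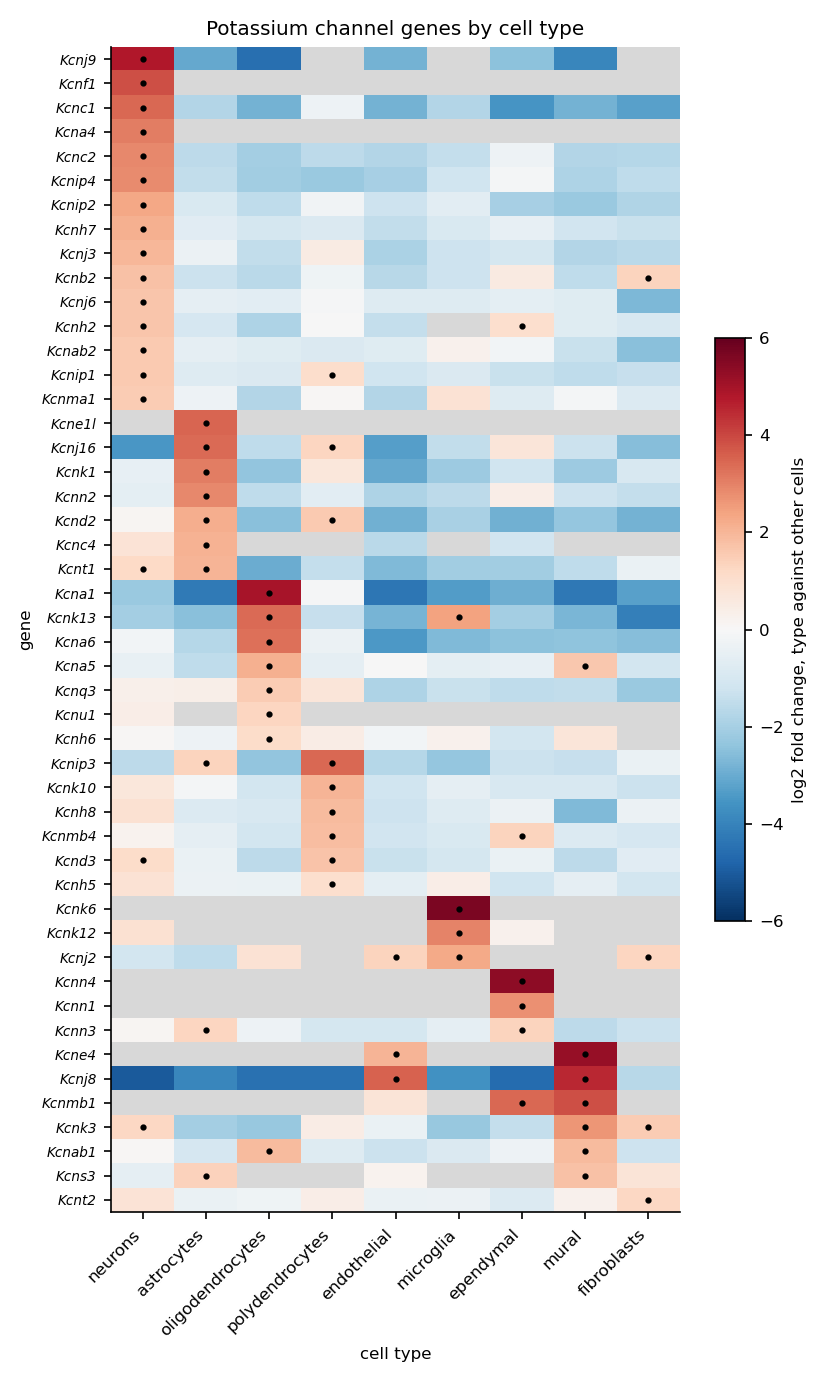
Log2 fold changes (colour scale) of 48 of the members called higher in at least 1 cell type; rows are genes, ordered by the type with the largest called fold, columns are the 9 types, a black dot marks a call and grey marks a gene not tested. Most called members of each type form a block of their own, and the neuronal block, with 18 calls shown in its column, is the longest.

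Neurons held 30.8% of all UMIs of the 14 libraries and 45.3% of the UMIs of the members. Of the UMIs of the 4 Kv3 members, pores of fast-firing neurons, 70.9% lay in neurons, or 67.1% without *Kcnc2*, the most counted of them. The share was 54.7% for the 8 EAG, ERG and ELK members, 51.8% for the 10 silent Kv subunits and 46.5% for the 5 Kv7 members, which carry the M-current. The 12 inward rectifiers, at 35%, and the 11 two-pore channels, at 34.8%, were near the share of all UMIs, although the rectifiers were at 49.6% without *Kcnj16*, and the SK and IK channels, at 23.5%, were below it. Other shares also moved without the most counted gene. The 4 Kv channel-interacting proteins were at 67.3% with *Kcnip4* and 42.4% without it, the 4 BK channel members at 51.6% with *Kcnma1* and 33.1% without it, and the 5 Kv1 members at 18.4% with *Kcna1* and 32.9% without it. The 3 KCNE subunits had 6.55% of their UMIs in neurons. These pooled shares carry no test.

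The 10 members with the most UMIs were spread over neurons and glia. *Kcnd2*, the pore of the A-type current of dendrites, had 17396 UMIs and ranged over the 14 libraries from 221 to 467 CPM of all cells, with a median of 303. Its level was 968 ± 390 CPM in astrocytes (SD, n = 14; 574 to 1740) and 918 ± 358 in polydendrocytes, and both types were called higher than the other cells (log2 fold change 2.20 ± 0.09, SE, edgeR adjusted p = 7.1e-25, and 1.57 ± 0.07, adjusted p = 1.8e-26). *Kcnip4*, which encodes a calcium-binding partner of that pore, was instead at 794 ± 234 CPM in neurons (481 to 1430) against a median of 101 CPM in other cells, a log2 fold change of 2.85 ± 0.09 (edgeR, adjusted p = 2.0e-22). In neurons *Kcnd2* was at 368 ± 97.9 CPM, with 32.8% of its UMIs, and was not called (0.12 ± 0.08, edgeR adjusted p = 0.204). Both genes thus led the counts and were found in neurons, but they were called higher in different types.

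Of the Kv7 members, *Kcnq1* was at 152 to 524 CPM in neurons and 85.1 to 225 in other cells, and its log2 fold change of 0.95 ± 0.06 was under the limit of 1. *Kcnq1* overlaps its antisense RNA *Kcnq1ot1* over 93092 bp, and whether counting used strand is not given in the sources used here, so the origin of these reads is uncertain. *Kcnq5* was at 172 to 311 CPM in neurons against 92.2 to 151 elsewhere (0.84 ± 0.07), also under the limit. *Kcnq3*, in contrast, was called higher in oligodendrocytes, at 98.9 to 200 CPM against 56.1 to 84.5 in other cells (1.5 ± 0.07, edgeR adjusted p = 7.3e-22). The oligodendrocyte range of *Kcnq3* lay wholly above that of the other cells.

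*Kcnn2*, a small-conductance calcium-activated channel, was called in astrocytes, with a lowest, median and highest value of 231, 340 and 436 CPM against 40.5, 51 and 93.7 in other cells (2.86 ± 0.10, edgeR adjusted p = 2.9e-27). *Kcnb2*, a delayed rectifier, was called in neurons at 116, 143 and 232 CPM against 27.4, 43.8 and 53.3 (1.76 ± 0.08, adjusted p = 1.1e-18). For neither gene did the libraries of the 2 sides overlap. *Kcnma1*, the BK pore, was at 170, 227 and 710 CPM in neurons against 66.5, 82.3 and 96.8 elsewhere (1.5 ± 0.11, adjusted p = 2.4e-13), and the value of 710 belonged to library S16 alone. *Kcnk2*, a leak channel opened by stretch and by lipids, was at 140 to 198 CPM in neurons and 85.8 to 125 in other cells, apart but with a log2 fold change of 0.60 ± 0.05 that is under the limit.

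In neurons, 21 of 50 members tested were called higher, against 13.4% of all genes tested, and 6 lower, against 21%. The median log2 fold change of the members was 0.89, against -0.01 over all genes. *Kcnj9*, a G protein-gated inward rectifier subunit that inhibitory receptors act on, led them, at 35.2, 44.5 and 65 CPM (lowest, median and highest of 14 libraries) against 0.461, 1.31 and 3.01 in other cells. Its log2 fold change was 4.82 ± 0.17 (edgeR, adjusted p = 6.4e-21), and 93.3% of its UMIs lay in neurons. *Kcnf1*, a silent Kv subunit, was at 6.57, 11.6 and 18.7 CPM against 0, 0.53 and 1.81 (3.85 ± 0.26, adjusted p = 4.9e-14). *Kcnc1*, a Kv3 pore that lets neurons fire fast, was at 83.7, 110 and 139 CPM against 7.25, 9.29 and 14.5 (3.43 ± 0.08, adjusted p = 2.0e-25). All 3 genes were above the other cells in every library, with no overlap of the ranges. Among the other 18 were the Kv3 pore *Kcnc2* (2.86) and the G protein-gated rectifiers *Kcnj3* (1.97) and *Kcnj6* (1.67), with log2 fold changes in brackets. The 6 members called lower were *Kcnj8* (-5.03), *Kcnj16* (-3.47), *Kcna1* (-2.21), *Kcnk13* (-2.06), *Kcnip3* (-1.56) and *Kcnj2* (-1.12), each called higher in a glial or vascular type.

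In single cells, *Kcnc1* had a UMI in 16.4% of neurons and in 0.424% of oligodendrocytes, and *Kcnj9* in 7.71% and 0.0499%. The median depth was 1389 UMIs per neuron and 737 per oligodendrocyte. After every cell was thinned to 500 UMIs, which left out 1670 neurons, *Kcnc1* was found in 5.36% and *Kcnj9* in 2.08% of neurons. Of the 21 other potassium-handling genes (pumps, cotransporters, HCN channels and auxiliary proteins), 16 were tested in neurons, 8 called higher and 6 lower. Among those called higher was *Lrrc55*, a BK auxiliary protein, at 7.97, 12.9 and 92 CPM against 0, 1.22 and 2.42. Its range in neurons was separate from that of the other cells.

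**Figure D2:**
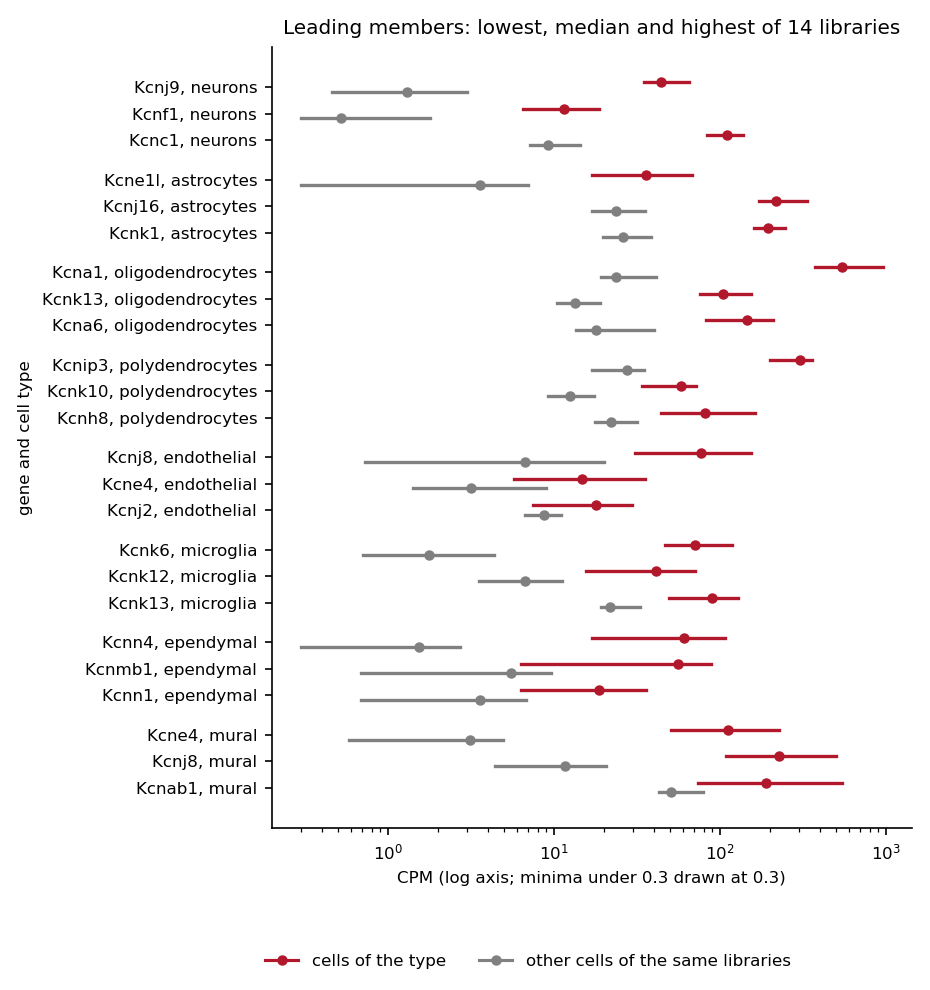
CPM (log axis) of the up to 3 leading members of each cell type that were higher in every library; lines run from the lowest to the highest of 14 libraries with a dot at the median, red for cells of the type and grey for the other cells of the same libraries. The red and grey lines are apart for most genes and overlap for *Kcne4* and *Kcnj2* in endothelial cells, *Kcnmb1* and *Kcnn1* in ependymal cells and *Kcnab1* in mural cells.

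The promoters of 6 members that led a cell type are given, 250 bases before and 50 after the start of the gene, read 5′ to 3′ on the gene's strand (RefSeq sequences, build GRCm38.p6), since the data set these genes apart by cell type. Capitals mark TATAAA in *Kcnj9* (neurons) and CCGCCC, the reverse complement of GGGCGG, in *Kcne1l* (astrocytes) and *Kcnn4* (ependymal cells). *Kcnk13* (oligodendrocytes and microglia), *Kcne4* (mural cells) and *Kcnj8* (mural cells) held none of the motifs searched.
Kcnj9 (chr1:172329273-172329572, minus strand): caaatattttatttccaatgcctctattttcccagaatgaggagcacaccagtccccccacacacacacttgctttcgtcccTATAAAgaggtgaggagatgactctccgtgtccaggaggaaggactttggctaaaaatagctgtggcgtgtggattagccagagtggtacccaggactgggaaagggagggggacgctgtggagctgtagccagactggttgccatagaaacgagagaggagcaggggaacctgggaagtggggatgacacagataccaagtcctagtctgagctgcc
Kcne1l (chrX:142306149-142306448, minus strand): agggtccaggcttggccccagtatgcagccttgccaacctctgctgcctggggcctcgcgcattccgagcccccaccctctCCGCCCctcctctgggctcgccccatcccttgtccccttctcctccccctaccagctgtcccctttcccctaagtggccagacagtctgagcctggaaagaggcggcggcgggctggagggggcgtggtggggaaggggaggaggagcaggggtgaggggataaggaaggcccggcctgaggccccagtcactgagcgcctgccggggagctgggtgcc
Kcnk13 (chr12:99964249-99964548, plus strand): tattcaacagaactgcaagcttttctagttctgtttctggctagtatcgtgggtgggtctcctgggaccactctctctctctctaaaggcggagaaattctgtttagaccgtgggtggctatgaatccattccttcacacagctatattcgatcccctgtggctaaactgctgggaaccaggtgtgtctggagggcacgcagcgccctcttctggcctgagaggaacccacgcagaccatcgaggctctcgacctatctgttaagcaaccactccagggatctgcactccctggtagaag
Kcnn4 (chr7:24370013-24370312, plus strand): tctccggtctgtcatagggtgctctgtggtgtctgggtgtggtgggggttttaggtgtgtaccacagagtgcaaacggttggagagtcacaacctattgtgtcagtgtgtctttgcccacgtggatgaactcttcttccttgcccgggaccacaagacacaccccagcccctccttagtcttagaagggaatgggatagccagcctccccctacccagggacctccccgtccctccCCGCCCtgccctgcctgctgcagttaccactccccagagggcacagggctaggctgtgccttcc
Kcne4 (chr1:78816661-78816960, plus strand): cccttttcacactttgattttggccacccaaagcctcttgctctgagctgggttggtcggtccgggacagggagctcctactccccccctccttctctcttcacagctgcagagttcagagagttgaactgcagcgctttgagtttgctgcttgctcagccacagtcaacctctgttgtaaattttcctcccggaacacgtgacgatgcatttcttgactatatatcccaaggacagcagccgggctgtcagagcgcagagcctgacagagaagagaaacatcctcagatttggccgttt
Kcnj8 (chr6:142571565-142571864, minus strand): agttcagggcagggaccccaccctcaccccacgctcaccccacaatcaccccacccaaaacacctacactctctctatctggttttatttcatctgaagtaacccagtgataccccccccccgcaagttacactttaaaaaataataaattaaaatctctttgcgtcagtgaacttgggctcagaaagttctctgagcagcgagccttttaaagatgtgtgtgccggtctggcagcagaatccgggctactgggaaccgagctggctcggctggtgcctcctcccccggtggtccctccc
The motifs were searched on both strands: TATAAA for the TATA box, GGGCGG for the GC box, the palindromic estrogen response element (GGTCA and, after any 3 bases, TGACC), the CArG box and the RE1 element. Of 82 promoters of the 58 members that had an entry, 41 held GGGCGG (50%, against 35.7% of 32851 promoters in all) and 4 held TATAAA (4.88%, against 13.6%). None held the other 3, which were found in 0.07%, 1.63% and 0.0639% of all promoters. A match is a string of letters and no evidence of a bound factor.

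In astrocytes, 10 of 47 members tested were called higher (12.2% of all genes) and 14 lower (17.6%), and the median log2 fold change was -0.52 against -0.02. *Kcne1l*, an auxiliary KCNE subunit, was at 17.1, 36.2 and 68.5 CPM against 0.287, 3.58 and 6.99 in other cells (3.48 ± 0.19, edgeR adjusted p = 2.6e-20). *Kcnj16*, an inward rectifier subunit that assembles with the product of *Kcnj10* in glia, was at 173, 217 and 335 CPM against 17, 23.7 and 35.7 (3.42 ± 0.08, adjusted p = 6.4e-33). *Kcnk1*, a two-pore channel, was at 160, 194 and 248 CPM against 19.8, 26.1 and 38.4 (3.05 ± 0.08, adjusted p = 3.6e-31). Each of the 3 was higher than the other cells in all 14 libraries, without overlap. The other astrocyte calls were *Kcnn2*, *Kcnd2*, *Kcnc4* (2.08), *Kcnt1* (2.04), *Kcns3* (1.37), *Kcnip3* (1.35) and *Kcnn3* (1.31).

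*Kcnj16* was also called in polydendrocytes, at 69.2 to 161 CPM against 33.3 to 67 (1.31 ± 0.11, edgeR adjusted p = 6.2e-16). A UMI of *Kcnj16* was found in 11.1% of astrocytes, 9.82% of polydendrocytes, 9.94% of ependymal cells and 1.3% of neurons. At 500 UMIs per cell the shares were 9.91%, 6.02%, 3.86% and 0.428%, with 6419 astrocytes, whose median depth was 478 UMIs, left out. Of the other potassium-handling genes, 3 of 14 tested were higher in astrocytes, among them the glial pump subunit *Atp1b2*, at 1210 to 1790 CPM against 101 to 163.

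In oligodendrocytes, 8 of 45 members tested were called higher (10.5% of all genes) and 24 lower (23.7%), with a median log2 fold change of -1.08 against -0.07. *Kcna1*, a low-threshold Kv1 pore best known from axons beside the nodes of Ranvier, was at 376, 542 and 961 CPM against 19.2, 23.7 and 41.1 in other cells (4.93 ± 0.07, edgeR adjusted p = 1.3e-40). Oligodendrocytes held 80.4% of its UMIs. *Kcnk13*, a two-pore channel, was at 75.6, 104 and 155 CPM against 10.4, 13.5 and 19.1 (3.41 ± 0.09, adjusted p = 8.0e-31). *Kcna6*, another Kv1 pore, was at 82.1, 146 and 210 CPM against 13.6, 18.1 and 40.1 (3.30 ± 0.10, adjusted p = 3.0e-30). The ranges of all 3 lay apart from those of the other cells. *Kcna5*, at 35.9 to 75.1 CPM against 13.1 to 22 (2.14 ± 0.12), was likewise apart, and *Kcnab1*, a Kv beta subunit, had a log2 fold change of 1.89.

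*Kcna5*, *Kcna1* and *Kcna6* lie in this order on the minus strand of chromosome 6, with gaps of 104985 and 61945 bp between them (*Kcna1* at chr6:126640397-126646384 of GRCm38). All 3 were called higher in oligodendrocytes. *Kcna6* overlaps *Gm26673* on the opposite strand over 21991 bp, and *Kcnab1* overlaps *A330015K06Rik* over 169626 bp. *Kcna1* was found in 35.3% of oligodendrocytes (95% exact interval 34.3 to 36.4, counting error only), in 4.76% of neurons and in 0.317% of astrocytes, and at 500 UMIs per cell in 23.8%, 1.48% and 0.198%. Of the other potassium-handling genes 3 of 14 were higher, led by *Hcn2*, a hyperpolarization-activated channel, at 73.6 to 236 CPM against 6.44 to 17.5, and *Slc12a2*, a sodium-potassium-chloride cotransporter, at 693 to 1120 against 74.7 to 117.

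In polydendrocytes, 10 of 42 members tested were called higher (7.32% of all genes) and 6 lower (14.1%), and the median log2 fold change was 0.05 against 0.03. *Kcnip3*, a calcium-binding partner of Kv4 pores, was at 202, 305 and 361 CPM against 16.9, 27.5 and 35 in other cells (3.45 ± 0.09, edgeR adjusted p = 5.4e-38). *Kcnk10*, a leak channel related to *Kcnk2*, was at 34.2, 58.7 and 71.7 CPM against 9.25, 12.5 and 17.5 (2.02 ± 0.15, adjusted p = 7.9e-18). *Kcnh8*, an ELK-type pore, was at 44.4, 81.9 and 162 CPM against 17.8, 22.1 and 31.9 (1.88 ± 0.13, adjusted p = 1.9e-19). None of these ranges overlapped with the other cells. Among the other calls were *Kcnmb4* (1.87), *Kcnd3* (1.71), *Kcnd2* (1.57), *Kcnj16*, *Kcnip1* (1.07) and *Kcnh5* (1.01), so that 2 of the 3 Kv4 pores and 2 of their partners were called. *Kcnip3* was found in 21.4% of polydendrocytes, at a median of 762 UMIs per cell, and in 1.5% of endothelial cells, at 714. At 500 UMIs per cell the polydendrocyte share was 14%. None of 13 other potassium-handling genes tested was called higher and 6 were lower.

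In microglia, the resident macrophages of the brain, 4 of 44 members tested were called higher (17.3% of all genes) and 19 lower (22.6%), with a median log2 fold change of -0.88 against -0.11. *Kcnk6*, a two-pore channel, was at 46.8, 71.4 and 119 CPM against 0.712, 1.77 and 4.35 in other cells. Its log2 fold change of 5.63 ± 0.20 (edgeR, adjusted p = 5.9e-31) was the largest of any called member in any type, and 73.2% of its UMIs lay in microglia. *Kcnk12* was at 15.6, 41.3 and 70.6 CPM against 3.55, 6.75 and 11.2 (2.96 ± 0.21, adjusted p = 3.0e-18), and its relative *Kcnk13* at 49.5, 90.3 and 129 against 19.4, 21.7 and 32.9 (2.43 ± 0.13, adjusted p = 1.6e-22). All 3 are two-pore channels, and in none did the ranges overlap. The fourth was *Kcnj2*, a strong inward rectifier, at 14 to 56.1 CPM against 5.34 to 11.4 (2.29 ± 0.20). *Kcnk13* thus was called in 2 types, and it was found in 8.8% of oligodendrocytes, 6.06% of microglia and 0.448% of endothelial cells, whose median depths were 737, 611 and 714 UMIs. *Kcnk6* was found in 5.18% of microglia and 0.0585% of astrocytes. None of 14 other potassium-handling genes was called higher and 8 were lower. At a resolution of 0.5, a cluster of 781 cells (all 16 libraries) that was also named microglia led with *S100a8*, *Lyz2*, *Cd74* and *H2-Eb1*. It had 6 of the 10 microglial markers detected and 0 of them among its 10 leading genes. The cells here may thus not be microglia alone, and the part of such cells in these calls was not tested.

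In ependymal cells, which line the ventricle, 6 of 48 members tested were called higher (12.6% of all genes) and 19 lower (14.3%), with a median log2 fold change of -0.49 against -0.06. *Kcnn4*, the intermediate-conductance calcium-activated channel of many epithelia and blood cells, was at 17, 61.3 and 108 CPM against 0, 1.55 and 2.72 in other cells (5.36 ± 0.23, edgeR adjusted p = 2.9e-23), and 78.3% of its UMIs lay there. Its ranges were apart. *Kcnmb1*, the BK beta subunit known from smooth muscle, was at 6.34, 55.7 and 88.3 CPM against 0.689, 5.57 and 9.68 (3.43 ± 0.20, adjusted p = 1.4e-18), and *Kcnn1* at 6.34, 18.8 and 35.9 against 0.689, 3.6 and 6.8 (2.73 ± 0.26, adjusted p = 3.1e-12). For both, the lowest ependymal library lay within the range of the other cells, although each was higher in every library. *Kcnmb1* lies within *Kcnip1*, on the opposite strand, and whether counting used strand is not given in the sources used here. The 2 counts went apart in neurons, where *Kcnip1* was at a mean of 95.2 CPM and *Kcnmb1* at 0.321. In S10 and S11 the log2 ratio to the other libraries was -1.41 for *Kcnip1* and 1.44 for *Kcnmb1*. Whether reads of 1 gene entered the count of the other was not tested. *Kcnn3* (1.34), a further SK channel, was also called, as were *Kcnmb4* (1.32) and *Kcnh2* (1.03). *Kcnn4* was found in 8.05% of ependymal cells, at a median of 1046 UMIs, and 0.0501% of astrocytes. Of 14 other potassium-handling genes 1 was higher and 9 were lower. At a resolution of 0.5, clusters of 1906 and 1395 cells (all 16 libraries) were named ependymal. The first led with *Ttr*, *Ccdc153* and *Tmem212* and had 8 of the 10 ependymal markers detected. The second led with *Scn7a*, *Gpr50* and *Rax* and had 5, against 4 of the next list. The cells here may thus be of more than 1 kind, and which of them hold these members was not tested.

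In mural cells, the smooth muscle cells and pericytes of vessels, 8 of 46 members tested were called higher (7.33% of all genes) and 26 lower (23.2%), with a median log2 fold change of -1.25 against -0.24. *Kcne4*, an auxiliary subunit of Kv pores, was at 50.8, 112 and 226 CPM against 0.587, 3.13 and 4.97 in other cells (5.22 ± 0.22, edgeR adjusted p = 5.3e-120). *Kcnj8*, the pore of the vascular ATP-sensitive channel, was at 109, 226 and 500 CPM against 4.43, 11.7 and 20.6 (4.51 ± 0.16, adjusted p = 1.2e-166). Neither gene's ranges overlapped. *Kcnab1* was at 73.7, 189 and 544 CPM against 42.8, 50.8 and 78.9 (1.90 ± 0.16, adjusted p = 4.9e-31), with its lowest library inside the range of the other cells. *Kcnmb1* (0 to 182 CPM against 1.33 to 15.1, 3.85 ± 0.21) and the acid-sensitive leak channel *Kcnk3* (0 to 252 against 10.8 to 21.1, 2.67 ± 0.20) were called but were higher in 13 of 14 libraries. *Kcns3* (1.76) and *Kcna5* (1.63) were also called. *Abcc9*, the regulatory subunit that pairs with *Kcnj8* and lies 16248 bp from it on chromosome 6, was at 228 to 871 CPM against 16.4 to 26.5 and led the 2 of 14 other genes called higher in mural cells.

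In endothelial cells, 3 of 48 members tested were called higher (13.7% of all genes) and 32 lower (21.5%), with a median log2 fold change of -1.28 against -0.05. *Kcnj8* was at 30.9, 77.1 and 155 CPM against 0.727, 6.7 and 20.1 (3.52 ± 0.24, edgeR adjusted p = 3.6e-15), *Kcne4* at 5.8, 14.9 and 35.5 against 1.43, 3.18 and 8.95 (2.06 ± 0.29, adjusted p = 1.3e-07), and *Kcnj2* at 7.52, 17.9 and 29.5 against 6.73, 8.74 and 11 (1.34 ± 0.16, adjusted p = 8.7e-09). Only the ranges of *Kcnj8* were apart. The 10 mural markers, summed, were at 3750 to 7360 CPM in this cluster against 124 to 1700 in the other cells, and the 10 endothelial markers at 18100 to 20600. When cells were clustered more finely (resolution 0.5 in place of 0.05), the mural markers were at 1440 to 3770 CPM, and the mean of *Kcnj8* was 24.8 CPM in place of 89.6 (log2 fold change 0.32, adjusted p = 0.235), which ended its call. *Kcne4* was then at a mean of 4.24 CPM on 14 UMIs, in place of 17.1 CPM on 110 UMIs. *Kcnj2* was at 18.5 CPM in place of 19, while *Kcnj8* in mural cells was at 278. *Kcnj8* had 92 UMIs in endothelial cells in place of 569, and 362 in mural cells in place of 349. At the finer resolution a cluster of 1526 cells (all 16 libraries), led by *Gkn3*, *Rgs5*, *Higd1b* and *Vtn*, was left unnamed. It belonged to no type and counted among the other cells. *Abcc9*, the only other potassium-handling gene of 14 called higher, was at 55.1 to 192 CPM against 7.27 to 27.6.

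In fibroblasts, 4 of 43 members tested were called higher (7.94% of all genes) and 23 lower (17.5%), with a median log2 fold change of -1.12 against -0.19, and none of the 4 was higher in every library. *Kcnk3* was higher in 10 of 14 libraries (0 to 117 CPM, 1.5 ± 0.29), *Kcnb2* in 10 (0 to 403 CPM, 1.32 ± 0.19), *Kcnj2* in 9 (0 to 75 CPM, 1.28 ± 0.36) and *Kcnt2*, a sodium-activated pore, in 12 (25.5 to 169 CPM, 1.25 ± 0.20). The cluster also held cells with markers of the pars tuberalis of the pituitary, which formed a cluster of 197 cells at the finer resolution. Its 5 markers, summed, were at 11.4 to 9430 CPM in the fibroblasts here and at 0 to 45 at the finer resolution. The mean of *Kcnk3* was 48.4 CPM with these cells and 3.49 without them, that of *Kcnb2* 186 and 212, and that of *Kcnt2* 81.7 and 93.3. At the finer resolution the log2 fold change of *Kcnk3* was -1.92 ± 0.56 (edgeR, adjusted p = 0.00214), while those of *Kcnb2* (1.5 ± 0.16), *Kcnj2* (1.37 ± 0.36) and *Kcnt2* (1.41 ± 0.21) remained called. Of 14 other genes tested, 1 was called higher in fibroblasts.

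Neurons were clustered again without any *Kcn* gene, and each cluster is called by its leading gene. Of 24 clusters, 21 had enough cells in at least 4 libraries to be compared with the other neurons. Called higher were 51 of 619 pairs of a member and a cluster, against 3513 of 143835 pairs (2.44%) over all genes. The 51 pairs cover 31 members in 13 clusters, and 20 of them are of the Lrrtm4-led cluster, where 19.9% of all genes were called higher. Members were also called lower, for example 17 of 33 tested in the Slc6a3-led cluster, where 3641 of 7101 genes were lower. The count was 9 of 25 in the Vip-led cluster (387 of 6224 genes) and 7 of 35 in the Tac2-led cluster (392 of 7899). In both of these the median log2 fold change of the members was -0.71, against -0.01 and -0.19 over all genes.

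The Lrrtm4-led cluster had 20 of its 27 tested members called higher, against 19.9% of all genes, and no member lower. The highest was *Kcnb2*, at 545, 793 and 1260 CPM (lowest, median and highest of 14 libraries) against 73, 104 and 147 in other neurons (3.14 ± 0.11, edgeR adjusted p = 7.3e-47). *Kcnip4* (2.99), *Kcnq1* (2.69) and *Kcnd2* (2.61) followed. Of the 20, 18 have more than 100000 bp of introns, as do 20 of the 27 tested. Its neurons were shallow, with a median of 794 UMIs, and none came from S10 or S11. The B230323A14Rik-led cluster (83 neurons, 7 libraries, none from S10 or S11) had 5 of 28 members called higher, against 4.19%. All 5 have more than 100000 bp of introns, as do 20 of the 28 tested, and the median depth of this cluster was 924 UMIs. *Kcnip4* was there at 5680, 9360 and 16900 CPM against 578, 694 and 1180 (2.83 ± 0.22, adjusted p = 2.6e-36). Both ranges were far apart, but the median log2 fold change over all genes was -1.17 in this cluster.

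In the Crym-led cluster (207 neurons, 7 libraries) 7 of 38 members were called higher, against 4.59%. *Kcnip2*, a partner of Kv4 pores, was at 36.9, 223 and 331 CPM against 26.3, 36.7 and 39.8 (2.59 ± 0.25, edgeR adjusted p = 3.8e-22) and higher in all 7 libraries. *Kcna1* (2.39) and *Kcnip3* (1.87), both glial in the comparison of cell types, were next. The Foxb1-led cluster (270 neurons, 12 libraries) had 5 of 28 called higher, against 2.44%: *Kcna6*, at 33, 85.3 and 373 CPM against 21.2, 30.1 and 45.7 (1.88 ± 0.24, adjusted p = 2.7e-10, higher in 11 of 12 libraries), with *Kcna1* (1.78), *Kcnj9* (1.36) and *Kcnj3* (1.29) among the rest. The 10 oligodendrocyte markers, summed, were at 408, 594 and 1150 CPM in this cluster and 852, 1070 and 1430 in other neurons, and all 3 that were tested were called lower. In the Crym-led cluster they were at 525 to 946 CPM against 1000 to 1590, while the 10 fibroblast markers were at 0, 249 and 599 against 27.1, 34 and 36 (higher in 6 of 7 libraries, none tested) and the 10 ependymal markers at 72.1, 123 and 177 against 52.4, 63.9 and 76.9 (higher in all 7, the 1 tested called higher). Their part in these calls was not tested. In the Shox2-led cluster (166 neurons, 8 libraries) 4 of 35 were higher, against 2.44%, led by *Kcnab2*, a Kv beta subunit, at 0 to 141 CPM against 17.9 to 32.8 (1.48 ± 0.45, adjusted p = 0.0159). That call rested on 18 UMIs and was lost without S9, S14 or S16 (adjusted p of 0.0858, 0.0855 and 0.0937) and without S13 to S16 together (0.608). The 10 astrocyte markers, summed, were at 401, 987 and 1450 CPM in this cluster against 514 at the median of other neurons, higher in 6 of 8 libraries and with 1 of 5 tested called higher, and their part was not tested.

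Among the peptide-led clusters, the Oxt-led neurons, which also lead with *Avp*, had the clearest single member. *Kcnmb4*, the neuronal BK beta subunit, was at 39.7, 115 and 160 CPM against 6.88, 11 and 25.1 in other neurons (3.06 ± 0.31, edgeR adjusted p = 3.0e-20) and higher in all 10 libraries, with no overlap. *Kcnh1* (2.04) was the other member called higher there. Of the 34 members tested in this cluster, 9 were called lower, against 583 of 7639 genes. In the Vip-led cluster *Kcnh8* was at 0, 130 and 266 CPM against 21.4, 33.6 and 63 (2.09 ± 0.19, adjusted p = 3.3e-17, higher in 13 of 14), with *Kcnc2* (1.24) beside it. In the Ppp1r17-led cluster *Kcnip2* was at 0, 106 and 373 CPM against 18.3, 36.1 and 81.6 (1.67 ± 0.27, adjusted p = 7.4e-08, higher in 11 of 14). The ranges of the latter 2 overlapped. *Kcnk10* in the Tac2-led cluster was at 0 to 136 CPM against 13.2 to 29.7 (1.94 ± 0.42, adjusted p = 1.5e-04, higher in 6 of 7 libraries, 26 UMIs), and 1.53 with an adjusted p of 0.181 without S13 to S16.

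The remaining 4 clusters with a member called higher gave less certain values. Over all genes the median log2 fold change was -1.98 in the Slc6a3-led and -1.45 in the Ndnf-led cluster. It was -0.93 in the Pmch-led cluster, of a median depth of 368 UMIs, and -0.05 in the Gm10800-led cluster. *Kcnd3* in the Slc6a3-led cluster was at 250 to 747 CPM against 38.9 to 78.4 (1.78 ± 0.44, edgeR adjusted p = 5.5e-04), in neurons with a median of 380 UMIs and on 16 UMIs of the gene. *Kcnh7* in the Ndnf-led cluster was at 196 to 1540 CPM against 121 to 237 over 4 libraries (1.34 ± 0.46, adjusted p = 0.0489). *Kcnc1* in the Pmch-led cluster was at 0 to 851 CPM against 83.2 to 136 (1.17 ± 0.32, adjusted p = 0.00167), and its log2 fold change was 0.93 without S15, 0.87 without S13 to S16 and 0.23 in DESeq2. *Kcna1* in the Gm10800-led cluster, of a median depth of 421 UMIs, was at 0 to 279 CPM against 16.9 to 48.9 (1.13 ± 0.27, adjusted p = 0.00206, higher in 8 of 14 libraries), but its log2 fold change was 0.68 without S16 (adjusted p = 0.216) and 0.23 without S13 to S16. No member was called higher in the other 8 clusters tested, which include the Gnrh1-, Hcrt-, Pomc- and Agrp-led ones and the Hba-a2- and Itih3-led ones, whose leading genes are not neuronal.

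**Figure D3:**
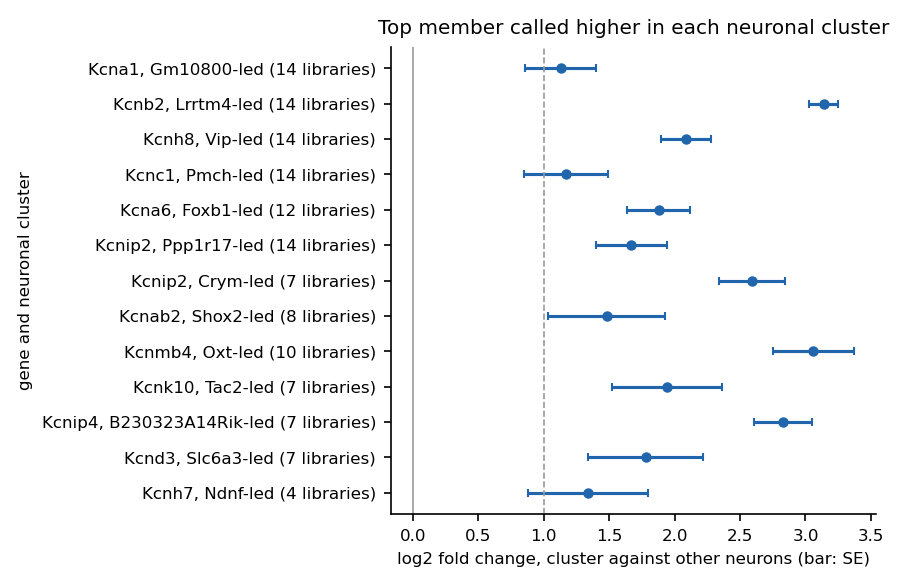
Log2 fold change with its SE (bar) of the top member called higher in each of 13 neuronal clusters against the other neurons, with the number of libraries; the dashed line marks the limit of 1. The folds run from 1.13 for *Kcna1* in the Gm10800-led cluster to 3.14 for *Kcnb2* in the Lrrtm4-led cluster.

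Neurons were also compared by transmitter class, with 1384 glutamatergic and 3334 GABAergic neurons from the 14 libraries, told apart by their transporter and synthesis genes. Of 32 members tested, 9 were higher in glutamatergic neurons (5.62% of 7189 genes) and 2 in GABAergic neurons (4.12%), at an edgeR adjusted p under 0.05. *Kcna1*, a Kv1 pore, was at 14.9, 38.9 and 80 CPM (lowest, median and highest library) in glutamatergic and 0, 22.9 and 42.8 in GABAergic neurons (0.99 ± 0.26, adjusted p = 0.0079, higher in 11 of 14 libraries). *Kcnab2*, a Kv beta subunit, was at 14.9, 39.6 and 163 CPM against 15, 22.2 and 46.5 (0.84 ± 0.19, adjusted p = 0.00281, higher in 12), whereas the Kv beta subunit *Kcnab1* differed by -0.23 (adjusted p = 0.513). *Kcna6* was at 19.9, 49.5 and 133 CPM against 14.8, 32.4 and 56.3 (0.71 ± 0.18, adjusted p = 0.00679, higher in 10, and 0.0554 without S13 to S16). All 3 ranges overlapped between the classes. *Kcna1* and *Kcna6* were also called higher in oligodendrocytes. The 10 oligodendrocyte markers, summed, were at 644, 820 and 1530 CPM in glutamatergic and 691, 1050 and 1370 in GABAergic neurons, and none of the 3 tested was called.

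*Kcnip4* was at 390, 709 and 2210 CPM in glutamatergic against 281, 469 and 768 in GABAergic neurons (0.76 ± 0.11, edgeR adjusted p = 1.4e-06, higher in 13 of 14 libraries). *Kcnj3*, a G protein-gated rectifier, was at 32.6, 69.3 and 110 CPM against 30.3, 47.1 and 67.4 (0.62 ± 0.14, adjusted p = 0.00174, higher in 11). Also called were *Kcnh7* (0.59), *Kcnma1* (0.49, and 0.27 with an adjusted p of 0.0309 without S16) and *Kcnq5* (0.32). In GABAergic neurons, *Kcnh8* was at 20.8, 52.2 and 106 CPM against 0, 26.2 and 97.8 in glutamatergic ones (-0.90 ± 0.19, adjusted p = 0.001, lower in glutamatergic neurons of 12 of 14 libraries). *Kcnc2*, the Kv3 pore of many GABAergic cells, was at 89.5, 124 and 170 CPM against 53.4, 86.9 and 196 (-0.49 ± 0.11, adjusted p = 0.00177, also 12 of 14). The ranges overlapped here too. *Kcnh8* and *Kcnc2* were also the members called higher in the Vip-led cluster of 787 neurons, and the part of that cluster was not tested.

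**Figure D4:**
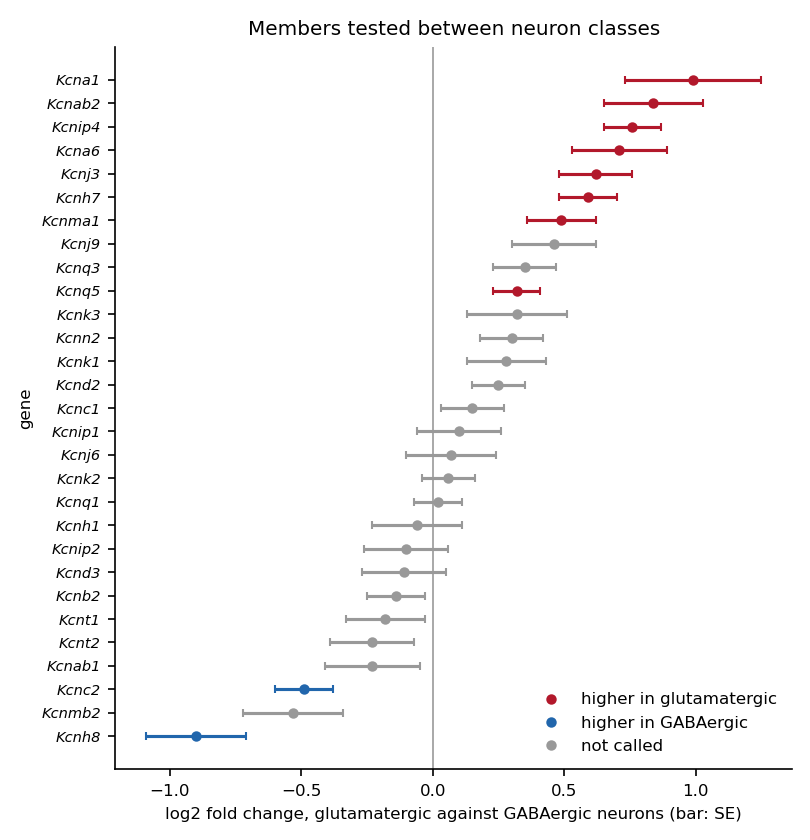
Log2 fold change with its SE (bar) of 29 of the members tested between glutamatergic and GABAergic neurons over 14 libraries; red and blue mark genes past an edgeR adjusted p of 0.05. The called differences shown lie between -0.90 (*Kcnh8*) and 0.99 (*Kcna1*) on the log2 scale.

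Whether tamoxifen or the loss of *Esr1* moved these genes was asked in each cell type, in 1 edgeR fit of the 4 groups. No member was called in any of 203 pairs of a member and a cell type, in any of 5 comparisons, and DESeq2 called none either. With no filter on low counts, 5 such differences passed the threshold, all in neurons: 3 of *Kcnab3*, 1 of *Kcnh8* and 1 of *Kcnma1*. In that setting 0.052% to 0.0726% of 194234 pairs over all genes were called, depending on the comparison. With the filter, few genes of any kind were called. The share of all 66962 pairs tested was 0.00896% for the tamoxifen effect of the wild-type and 0.00896% for that of the cKO mice, 0.0239% for the difference of both effects, 0.00448% for cKO against wild-type under oil and 0.0179% under tamoxifen. In that order, the smallest adjusted p of a member was 0.284, 0.76, 0.522, 0.307 and 0.999. The pairs with an unadjusted edgeR p under 0.05 numbered 16, 8, 15, 12 and 9, or 7.88%, 3.94%, 7.39%, 5.91% and 4.43% of pairs, against 5.18%, 4.49%, 5.67%, 5.95% and 3.61% over all genes. Comparisons that share a group of libraries are not independent, and the wild-type oil group holds 2 libraries.

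In neurons of wild-type mice, 6 of 57 members had an unadjusted p under 0.05 (10.5%, against 6.46% of all genes), and all 6 were at lower levels under tamoxifen. *Kcnab3*, a Kv beta subunit, had the smallest p. It was at 44.1 and 15.4 CPM in the oil libraries S1 and S5 and at 9.3, 5.71, 7.16, 2.41 and 3.76 under tamoxifen, a log2 fold change of -2.20 ± 0.58 (edgeR, adjusted p = 0.578). The 2 groups did not overlap, but the difference was not past the threshold, except with no filter on low counts (-2.16, adjusted p = 6.7e-05). It rested on 45 and 35 UMIs, and without S1 it was -1.37. The left-out wild-type oil library S10 had *Kcnab3* at 2.11 CPM over all its cells, against 1.94 to 18 in the 14 libraries (median 3.24). The gene has 3920 bp of introns. In cKO neurons *Kcnab3* was at 4.89, 18.8, 2.18 and 5.69 CPM under oil and at 20.5, 7.12 and 3.31 under tamoxifen, which overlap. The difference of the 2 effects was 2.95 ± 0.84 (adjusted p = 0.522, and 9.5e-04 with no filter). Between genotypes *Kcnab3* differed by -1.95 ± 0.60 under oil (cKO minus wild-type, adjusted p = 0.357, and 0.00339 with no filter), a contrast that shares the wild-type oil libraries, and by 1.0 ± 0.59 under tamoxifen (adjusted p = 1).

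*Kcna6* was at 86.5 and 33.4 CPM in wild-type oil neurons and 22.6, 31.4, 34, 28.9 and 40.4 under tamoxifen (-0.82 ± 0.31, edgeR adjusted p = 0.685). *Kcnq5* was at 211 and 311 CPM against 207, 189, 186, 206 and 175 (-0.43 ± 0.17, adjusted p = 0.705). The *Kcna6* groups overlap and those of *Kcnq5* do not, but with all 16 libraries the *Kcnq5* difference was 0.12. That setting adds the wild-type oil library S10, which had *Kcnq5* at 5.8 CPM over all its cells, against 120 to 174 in the 14 libraries. *Kcnq5* has 555851 bp of introns. *Kcnh8* was at 27.8 and 30.8 CPM in wild-type oil and at 42.4, 84, 54 and 51.2 in cKO oil neurons (1.01 ± 0.27, adjusted p = 0.307, and 0.0385 with no filter), again without overlap. *Kcnh6*, an ERG-type pore, was at 26.1 and 19.7 CPM against 13, 11.3, 7.63 and 8.13 under oil (-1.11 ± 0.35, adjusted p = 0.377), also without overlap, and differed by -0.65 ± 0.33 under tamoxifen (adjusted p = 1), where the groups overlapped.

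In cKO neurons, *Kcnd1*, the third Kv4 pore, was at 2.45, 2.51, 2.18 and 3.25 CPM under oil and 9.45, 4.75 and 5.51 under tamoxifen (1.40 ± 0.52, edgeR adjusted p = 0.963), on 13 and 19 UMIs. The cKO groups were apart, while the wild-type values ran from 5.13 to 6.53 CPM under oil and from 3.76 to 11.4 under tamoxifen and overlapped. *Kcnc2* was at 137, 143, 101 and 164 CPM against 94.5, 116 and 106 (-0.42 ± 0.19, adjusted p = 0.963), and *Kcng2*, a silent subunit, at 18.7, 8.78, 12 and 17.1 against 5.51, 11.9 and 9.92 (-0.82 ± 0.42, adjusted p = 0.963). Both pairs of groups overlapped. The effect of tamoxifen differed between genotypes by 0.95 ± 0.39 for *Kcnip3* (adjusted p = 0.644), which was at 22.9 and 30.8 CPM in wild-type oil, 15.2 to 24.9 in wild-type tamoxifen, 16.3 to 20.1 in cKO oil and 20.5 to 42.7 in cKO tamoxifen neurons.

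*Kcnma1* had the smallest unadjusted p in neurons between genotypes under tamoxifen. It was at 215, 241, 231, 197 and 710 CPM in the wild-type and at 174, 233 and 193 in the cKO libraries (-0.69 ± 0.31, edgeR adjusted p = 1, and 0.0127 with no filter on low counts). The groups overlap, the value of 710 is that of S16, and without it the difference was -0.15.

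**Figure D5:**
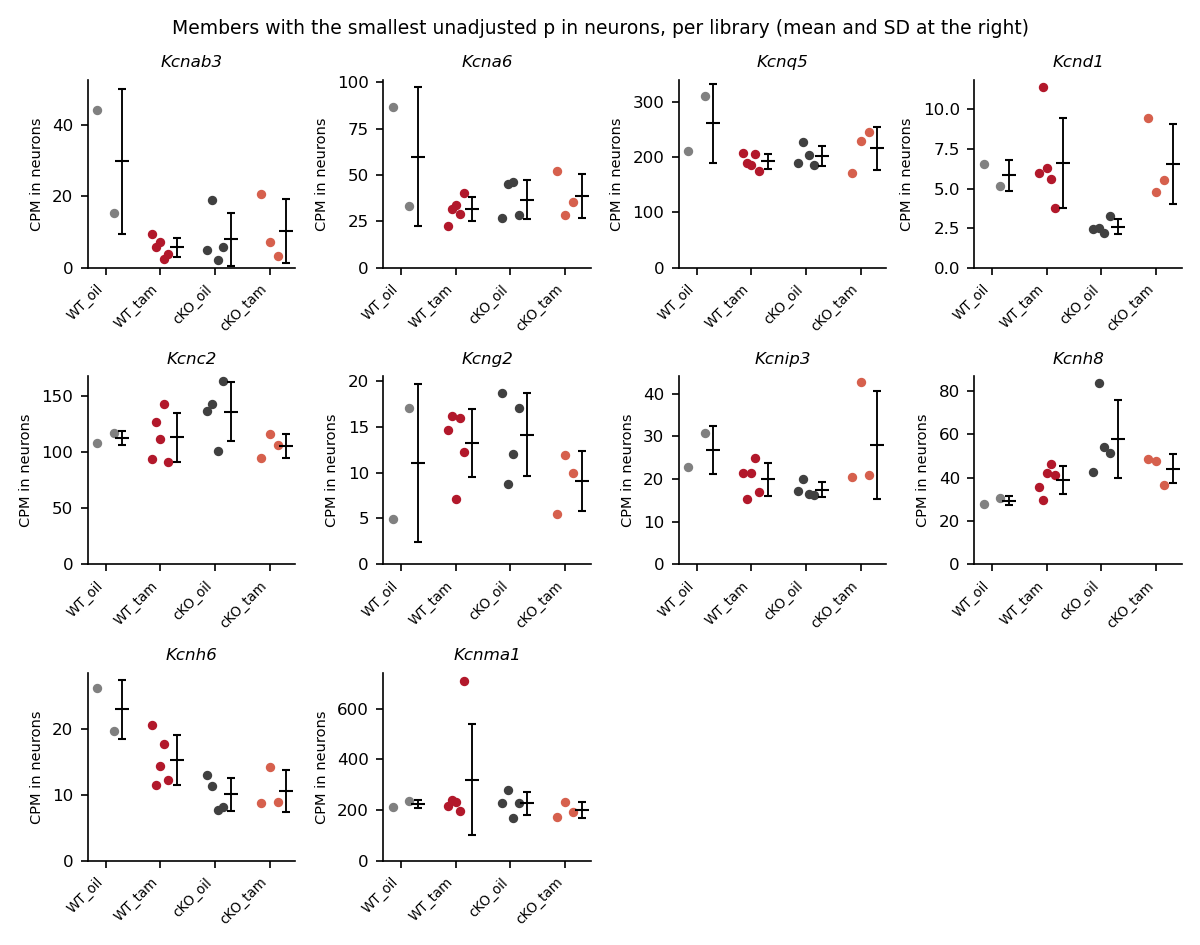
CPM in neurons of each of 14 libraries, by group, for 10 of the members with the smallest unadjusted p in a group comparison; the bar at the right of each group is the mean with its SD. The wild-type oil library S1 is high for *Kcnab3* and *Kcna6*, and the wild-type tamoxifen library S16 is high for *Kcnma1* at 710.

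Outside neurons, 5 further members were chosen after their values were seen, for their small unadjusted p. In ependymal cells of wild-type mice, 5 of 18 members had an unadjusted p under 0.05 (27.8%, against 8.35% of all genes). *Kcnmb1* was at 6.34 and 33.9 CPM under oil and at 53.9, 45.3, 88.2, 88.3 and 78.5 under tamoxifen (1.71 ± 0.47, edgeR adjusted p = 0.284), without overlap and on 10 UMIs in the oil group. That group leaves out the wild-type oil library S10, which held 351 ependymal cells. Over all its cells, S10 had *Kcnmb1* at 33.8 CPM, and S11 (cKO tamoxifen) had 18.2, against 1.33 to 18.4 in the 14 libraries. *Kcnmb1* has 6438 bp of introns and is not a long-intron gene. *Kcnn4* was at 19 and 41.5 CPM against 108, 17, 98.3, 77.8 and 75.5 (1.23 ± 0.44, adjusted p = 0.409), with overlap. The mix of cells within the ependymal cluster was not tested between groups. In polydendrocytes of cKO mice, *Kcnh5*, an EAG-type pore, was at 27.4, 45.3, 30.5 and 95.6 CPM under oil and 16.6, 6.92 and 4.88 under tamoxifen (-2.37 ± 0.61, adjusted p = 0.76). The groups were apart, on 5 UMIs in the tamoxifen group. In astrocytes, *Kcnd3* was at 22.8, 14.7, 14.5, 11.4 and 16.7 CPM in wild-type and 23.9, 41.4 and 36.2 in cKO mice under tamoxifen (1.16 ± 0.33, adjusted p = 1), also without overlap. *Kcna1* in oligodendrocytes, the type that holds most of it, was at 487 and 442 CPM in wild-type oil, 614, 469, 554, 531 and 561 in wild-type tamoxifen, 961, 603, 752 and 523 in cKO oil and 497, 376 and 624 in cKO tamoxifen libraries. Its log2 fold change for tamoxifen in cKO mice was -0.55 ± 0.19 (adjusted p = 0.902), with overlap of the groups.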

How the data were processed

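Dissociated cells of the hypothalamus-POA of 16 mice were profiled by Drop-seq, 1 library per mouse. The authors deposited whole-number UMI counts of each gene in each cell barcode, by library, without normalization or pooling, and 0 columns belonged to no sample. The submitters' processing notes name STAR 2.6, Seurat and the mm10 build. The counting program, annotation and strand of counting are not given in the sources used here.

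Barcodes with more than 200 and under 4000 genes and under 15% mt- UMIs were kept, which holds 1717573 to 5457033 UMIs per library. Cells were clustered in Seurat 5.3.0 (R 4.3.3) without *Kcn* genes, at a resolution of 0.05 (2000 variable genes, 20 components), and the neurons among them at 0.7 (500 variable genes). Names came from marker lists. Scrublet (scanpy 1.11.5, exact neighbours) marked 699 cells (1.26%) as doublets, which were removed only in an alternative. UMIs were summed per library and type (at least 10 cells) or neuronal cluster (at least 5 cells in 4 libraries), and tested with edgeR 4.0.16 (quasi-likelihood, TMM, filterByExpr, two-sided, Benjamini-Hochberg over all genes). An SE is the fold change over the square root of F. The study's methods give 4 collection days of 4 mice, but no label ties a library to a day or litter, so p-values measure the spread between these mice. CPM values are per 1000000 UMIs of the summed cells. Intervals are exact Clopper-Pearson at 95% and cover counting error only. Positions come from GENCODE vM21 (GRCm38).

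The members and lists were chosen with earlier results of these data known. The genes named are the 10 members with the most UMIs, up to 3 per cell type called higher and higher in every library, the top member called per neuronal cluster, up to 5 per direction between transmitter classes, every member called between groups with the 3 of smallest p in neurons, those beside the limit of 50 UMIs, and up to 2 per type of the 21 other potassium-handling genes. Others are named to complete a count or were chosen after their values were seen. Some genes that these rules name are not reported here. Alternatives were DESeq2 1.42.0, its size factors, no filter on low counts, all 16 libraries, over 500 genes per cell, a mitochondrial share under 5%, no doublets, a resolution of 0.5, fours of successive library numbers as a term, 1 genotype alone, at least 2 UMIs of the class genes, each library left out and, added after seeing the data, the cells with shared barcodes or libraries S13 to S16 left out.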

Additional observations from a re-analysis of the deposited data

Results flagged for a closer look

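*Kcnma1* in neurons stood at 710 CPM in the wild-type tamoxifen library S16, far from the other 4 libraries of its group, which lay between 197 and 241 CPM. The gap took 0.914 of the group's range. It was the single flag among 34 groups of libraries tested, of which chance flags about 1 in 20. The library held 756 UMIs of *Kcnma1* in 594 neurons, and 529 of them lay in 66 neurons of the Gm5741-led cluster, at 2840 CPM against 76.2 CPM in the same cluster of the other 13 libraries. The value of 76.2 CPM rests on 4 UMIs, as 66 of the 81 neurons of this cluster came from S16. In S16, 49 neurons with at least 5 UMIs each held 544 of the UMIs, and the highest single neuron had 31, against 4 to 15 in the other libraries. The share of neurons with a UMI was 31.8% in S16 and 22.5% to 35.7% elsewhere. In the other 8 cell types S16 lay within the range of the other libraries. The cause was not tested.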

How the results depend on the processing

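The direction of all 24 members named by cell type, 13 by neuronal cluster and 7 by transmitter class was the same in every value obtained under the alternatives. By cell type, 519 of 520 values also kept their side of the threshold, the exception being *Kcnj8* in endothelial cells at a resolution of 0.5 (0.32). By cluster 263 of 282 did, and by transmitter class 159 of 161, where *Kcna6* was not called at a mitochondrial share under 5% (0.56) or without S13 to S16 (0.64). The 520 values by cell type do not cover every named member under every alternative. At a resolution of 0.5, a cluster of 1526 cells was left unnamed and counted among the other cells of every type. *Kcne4* in endothelial cells fell to 14 UMIs and a mean of 4.24 CPM at a resolution of 0.5, from 110 UMIs and 17.1 CPM. Its endothelial call is thus not shown to hold at that resolution. The 19 lost by cluster belong to *Kcna1* (Gm10800-led), *Kcnc1* (Pmch-led), *Kcnab2* (Shox2-led), *Kcnk10* (Tac2-led) and *Kcnh7* (Ndnf-led).

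The calls by cell type numbered 74, and 47 at a mitochondrial share under 5% (46 of them the same), where fewer cells enter, and 61 to 92 under the other alternatives. The calls between transmitter classes numbered 11, 5 at that share and 8 to 14 otherwise, and those by cluster 51, with 36 to 53. With 1 library left out they numbered 69 to 74 by cell type, 10 to 13 by class and 47 to 56 by cluster.

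Between groups, 0 members were called in each comparison and with any 1 library left out (0 to 0). With no filter on low counts, where 0.052% to 0.0726% of all gene and cell type pairs were called, 1 was called for tamoxifen in wild-type mice (*Kcnab3*, -2.16, edgeR adjusted p = 6.7e-05), 0 in cKO mice, 1 for the difference (*Kcnab3*, 2.89, 9.5e-04), 2 for genotype under oil (*Kcnab3*, -1.90, 0.00339, and *Kcnh8*, 1.05, 0.0385) and 1 under tamoxifen (*Kcnma1*, -0.71, 0.0127). The cause was not tested. *Kcnq5* under tamoxifen in wild-type neurons turned to 0.12 with all 16 libraries. These include S10, with this long-intron gene at 5.8 CPM over all cells, against 120 to 174 in the 14 libraries. *Kcnab3* between genotypes under tamoxifen ran from -0.31 without S2 to 1.45 without S15. No paired analysis was possible because the groups share no replicate numbers and no label ties a library to a collection day. With fours of successive library numbers as a term, as a stand-in for the 4 days, 0 members were called, and the calls over all genes numbered 8 for tamoxifen in wild-type mice (6 without the term), 19 in cKO mice (6), 14 for the difference (16), 11 for genotype under oil (3) and 12 under tamoxifen (12). Several members rested on 5 to 45 UMIs in a group. Outside the genes named by rule, *Kcnk3* in fibroblasts turned from 1.5 to -1.92 at a resolution of 0.5.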

Other observations

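The Gm5741-led cluster, which was not compared because too few libraries held 5 of its neurons, leads with *Gm5741*, *Gng8*, *Gpr151*, *Pou4f1*, *Chrna3* and the BK auxiliary gene *Lrrc55*, and 66 of its 81 neurons in the 14 libraries came from S16. *Lrrc55* was at 7.97 to 92 CPM in neurons over the 14 libraries, with a median of 12.9. The values that follow are of *Kcnma1* in the other clusters with at least 12 of its UMIs in S16. In S16 it was at 773 CPM in the Lrrtm4-led cluster (459 in the other 13 libraries), 290 in the Meis2-led (165) and 418 in the Gm10800-led cluster (212). It was at 324 CPM in the Vip-led (276), 460 in the Shox2-led (280), 450 in the Pmch-led (231) and 486 in the Foxb1-led cluster (267). Lower in S16 were the Gnrh1-led cluster, at 127 CPM (154), and the Hcrt-led cluster, at 120 (188). Clusters with fewer UMIs of the gene in S16 went both ways.

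*Kcnj9* lies 11892 bp from *Kcnj10* on chromosome 1, and *Kcnj16* lies 38196 bp from *Kcnj2* on chromosome 11. *Kcnj9* was called higher in neurons and lower in astrocytes (-3.06), and *Kcnj16* was called higher and *Kcnj2* lower (-1.53) in astrocytes.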
